A study of Mus musculus with 24 samples.

Results

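The lung of 14-day-old mice was compared with that of 4-day-old mice, the span over which the air sacs of the mouse lung are mainly divided into alveoli. The 10 arrays were chosen by their titles, 5 labelled postnatal day 4 and 5 labelled postnatal 2 weeks (day 14), out of 24 arrays in all. Both groups came from whole lung of healthy C57BL/6 mice with no treatment or engineered allele, and they differ by age alone as labelled. The other 14 arrays, from day 1, day 7 and day 42, entered the model for the spread between arrays, and those of day 7 divided the span into 2 steps. Ages are those of the labels and the design text, all of them after birth, although the title of the study says fetal. The labels call the arrays biological replicates and do not say whether each came from 1 animal. MicroRNAs (miRNAs) were measured as the total signal per miRNA on 1-colour arrays, and of the 611 mouse miRNA names on the array, the 304 detected on all 5 arrays of at least 1 of the 2 ages were tested. Of these, 260 were detected on all 10 arrays, 31 on all arrays of day 14 only and 13 on all arrays of day 4 only.

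A miRNA is a short RNA that guides a silencing complex to messenger RNAs, mostly through its seed, the bases 2 to 8 from its 5′ end, so that miRNAs with the same seed share many of their targets. Some miRNAs are transcribed together from a cluster, and each hairpin precursor can release a mature miRNA from either arm. During septation, ridges carrying myofibroblasts and elastin grow out from the walls of the sacs, the capillary bed is remodelled and cell division slows down towards its end. A star in the array's older naming marks the arm that was thought to be the less abundant.

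The mature sequences of the miRNAs on which the results turn are given 5′ to 3′ from RefSeq (GRCm38.p6), with the seed in capitals. Of 67 array names looked up under their current names, 63 matched. The miR-29 family is shown because its 3 members carry 1 seed and gave the 3 largest rises, and the miR-146 pair because both members, on different chromosomes, rose.
miR-29a: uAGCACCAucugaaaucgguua
miR-29b: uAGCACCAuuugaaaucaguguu
miR-29c: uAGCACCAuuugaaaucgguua
miR-146a: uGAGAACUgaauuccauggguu
miR-146b: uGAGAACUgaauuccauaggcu

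The miR-29 genes form a pair of clusters. Mature miR-29a lies at chr6:31062673-31062694 and 1 copy of miR-29b beside it at chr6:31063025-31063047, both on the minus strand, and the other copy of miR-29b lies at chr1:195037091-195037113 with miR-29c at chr1:195037600-195037621, both on the plus strand. The array cannot tell the 2 copies of miR-29b apart.

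The next 6 sequences share a seed but not a direction of change, which is why they are set beside each other.
miR-195: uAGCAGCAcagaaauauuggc
miR-497: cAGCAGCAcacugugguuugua
miR-15a: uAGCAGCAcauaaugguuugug
miR-16: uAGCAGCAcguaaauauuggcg
miR-15b: uAGCAGCAcaucaugguuuaca
miR-322: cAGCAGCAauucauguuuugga

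The last set holds falling miRNAs of several seeds. The 4 shown from the miR-17 clusters share the seed AAAGUGC; miR-106b is shown for that seed and did not pass the test. The pair from the miR-130 and miR-301 family shares AGUGCAA. The last 5 come from the imprinted Dlk1-Dio3 region of chromosome 12, and their seeds differ from each other.
miR-17: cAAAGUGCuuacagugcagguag
miR-20a: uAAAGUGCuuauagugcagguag
miR-93: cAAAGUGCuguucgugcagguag
miR-106b: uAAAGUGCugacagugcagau
miR-130a: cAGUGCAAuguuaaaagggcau
miR-130b: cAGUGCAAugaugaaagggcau
miR-433: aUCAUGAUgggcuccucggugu
miR-409-3p: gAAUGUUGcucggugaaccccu
miR-431: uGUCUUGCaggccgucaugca
miR-410: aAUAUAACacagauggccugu
miR-127: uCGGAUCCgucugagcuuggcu

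Arrays detected 279 to 328 miRNAs at day 4 and 303 to 343 at day 14 (means 313.6 ± 20.2 and 319.2 ± 16.2, SD, n = 5 each), and the ages overlapped (two-sided p = 0.706 by exact permutation). Before scaling the day 14 arrays were brighter, with a 75th percentile of 1442 to 3076 intensity units against 767 to 1584 at day 4 (exact permutation test on log2 values, two-sided p = 0.0238; the smallest possible is 0.00794). Each slide carried arrays of both ages. Within slides 1, 2 and 3, 120, 121 and 121 of the 121 miRNAs that passed the test kept their sign. These miRNAs were called on the same arrays, so that their agreement is no independent check for an effect of the slide. Day 14 replicate 5 stood apart: its distance to the day 7 mean (0.455, a root mean square difference in log2) was smaller than to its own age's mean (0.659), whereas the other 4 arrays of day 14 lay nearest to the day 14 mean. Day 4 replicates 2, 4 and 5 also lay nearest to the day 7 mean, and day 4 replicate 1, the dimmest of the 10, nearest to the day 1 mean. Counts are given with and without day 14 replicate 5 and day 4 replicate 1.

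From day 4 to day 14, 121 of the 304 tested miRNAs changed (39.8%), 35 of them upward (11.5%) and 86 downward (28.3%), by limma's moderated test with Benjamini-Hochberg adjustment at 0.05. At an unadjusted p under 0.05 there were 150. A change of 2-fold or more was called for 60 miRNAs (19.7%), of which 10 rose and 50 fell. The 5 arrays of day 14 lay entirely above or below the 5 of day 4 for 95 miRNAs (31.2%), 30 higher (9.87%) and 65 lower (21.4%). Without day 14 replicate 5 there were 127 calls (36 rises and 91 falls), and without day 4 replicate 1 there were 104 (26 and 78). The median change of all tested miRNAs was -0.10 on the log2 scale. The split between rises and falls depended on how the arrays were scaled: it was 48 rises and 77 falls when scaled by the median, 60 and 73 after quantile normalization, 65 and 72 in the deposited table, 97 and 61 with the percentile taken over all names, 132 and 33 with no scaling, and 30 and 147 after another background correction. The median of all tested miRNAs moved with it, to 0.09 after quantile normalization, 0.11 in the deposited table, 0.19 with all names, 0.61 with no scaling and -0.44 with the other background correction, so each change below is relative to these scales.

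**Figure D1:**
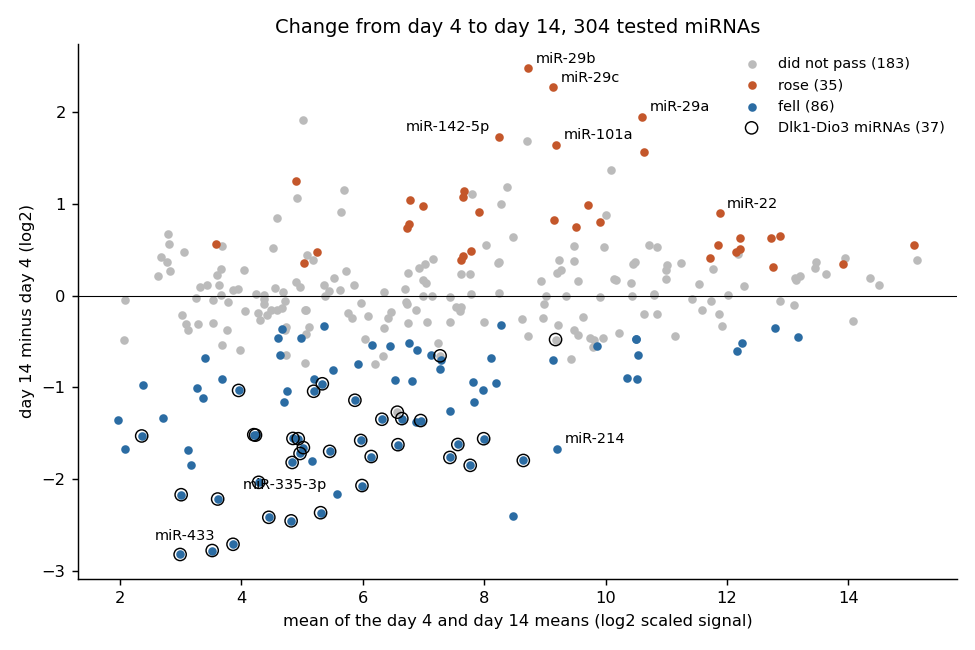
Change from day 4 to day 14 (vertical axis, log2) against the mean of the 2 age means (horizontal axis, log2 scaled signal) for 304 miRNAs, each point 1 miRNA, coloured by whether it rose (35), fell (86) or did not pass the test (183), with the 37 tested miRNAs of the Dlk1-Dio3 region ringed. The ringed points lie in the lower part of the plot, and the 3 members of the miR-29 family lie at its top.

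The 3 miRNAs of the miR-29 family rose most. This family holds back messages for collagens, elastin and other proteins of the extracellular matrix. On the log2 scale, miR-29a read 9.37, 9.77, 9.69, 9.60 and 9.74 on the arrays of day 4 and 11.81, 12.01, 11.88, 11.81 and 10.39 on those of day 14. All 5 arrays of day 14 were above all 5 of day 4, with replicate 5 the lowest of its age. The rise was 1.95 ± 0.229 (± is the standard error of the model after a change), or 3.85-fold (adjusted p = 6.39e-07). The levels of miR-29c were 7.29, 8.30, 7.89, 8.17 and 8.37 at day 4 and 10.49, 10.63, 10.60, 10.56 and 9.08 at day 14. It rose by 2.27 ± 0.324 (adjusted p = 5.06e-06) without overlap between the ages. The passenger arm of its hairpin, miR-29c*, rose by 1.25 ± 0.177 (adjusted p = 4.84e-06), whereas under the other background correction it changed by -0.10 (adjusted p = 0.591).

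Arrays of day 4 disagreed more on miR-29b, which read 5.85, 8.04, 6.63, 8.36 and 8.59 there against 9.99, 10.12, 10.24, 10.53 and 8.95 at day 14. The low values at day 4 were those of replicates 1 and 3, the 2 dimmest arrays of that age. The rise of 2.48 ± 0.624 (adjusted p = 0.00274) was the largest of all, and it became 1.01 (adjusted p = 0.0277) in a model that holds array brightness as a covariate. Without day 14 replicate 5 the 3 members rose by 2.24 (miR-29a), 2.57 (miR-29c) and 2.73 (miR-29b). Without day 4 replicate 1 miR-29b rose by 2.06 (adjusted p = 0.0113).

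**Figure D2:**
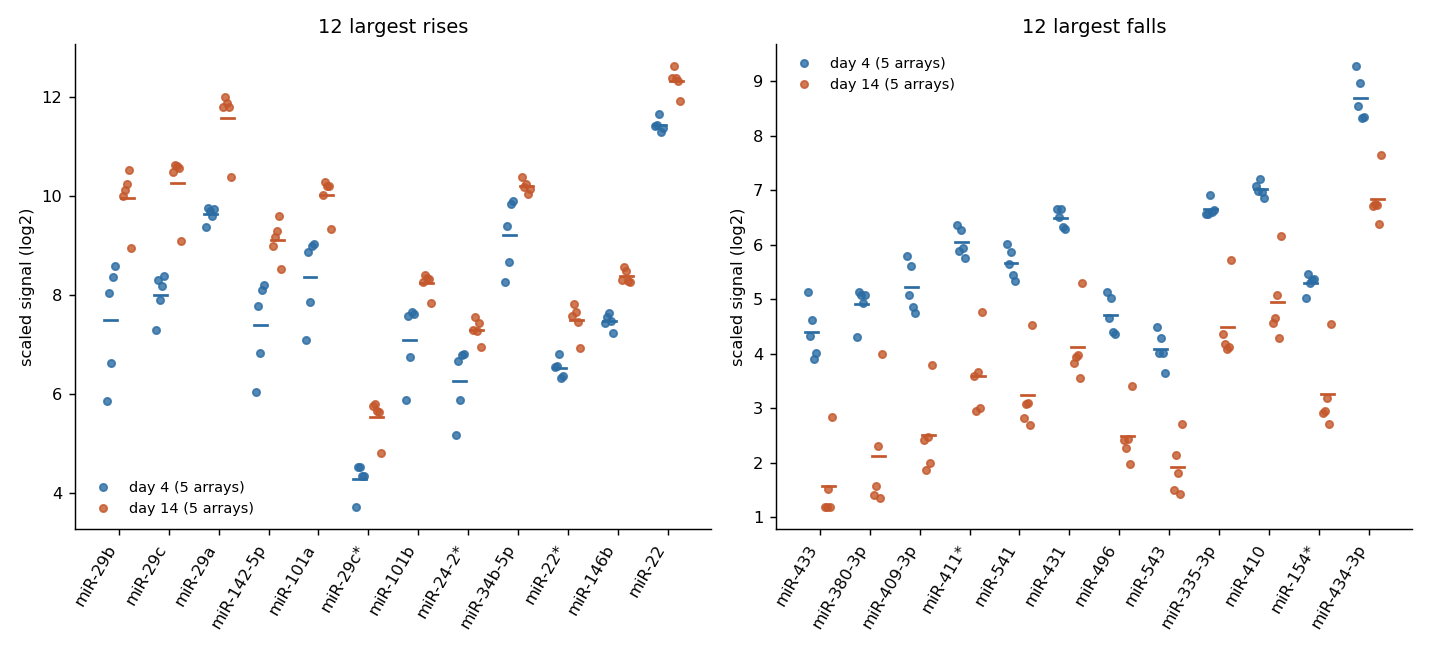
Log2 scaled signal (vertical axis) on each of the 5 arrays of day 4 (blue) and the 5 of day 14 (orange) for the 12 largest rises (left) and 12 largest falls (right) whose arrays do not overlap; horizontal bars are means and points run from replicate 1 on the left to 5 on the right. Day 14 replicate 5 lies nearest to day 4 in all 12 falls shown.

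A second set of rises comprised miR-142-5p, miR-101a, miR-101b, miR-24-2* and miR-34b-5p. Of these miRNAs, miR-142 is made in blood cells, miR-101 is known for its pairing with the message of the chromatin enzyme Ezh2, and miR-34b is typical of cells with many cilia. The other tested names of cells with many cilia did not pass. The values of miR-142-5p were 6.04, 7.78, 6.82, 8.10 and 8.20 at day 4 and 8.99, 9.17, 9.28, 9.59 and 8.53 at day 14. The 2 dimmest arrays of day 4 again gave the lowest readings. It rose by 1.73 ± 0.468 (adjusted p = 0.00498) and miR-142-3p, the other arm, by 1.57 ± 0.575 (adjusted p = 0.0356), with overlap between the ages for the latter. The levels of miR-101a were 7.09, 8.87, 7.85, 8.99 and 9.02 at day 4 and 10.03, 10.28, 10.21, 10.21 and 9.32 at day 14, a rise of 1.64 ± 0.489 (adjusted p = 0.00955). Without day 4 replicate 1, miR-142-5p rose by 1.39 (adjusted p = 0.0206) and miR-101a by 1.32 (adjusted p = 0.0376). For miR-101b the rise was 1.14 ± 0.422 (adjusted p = 0.0358), for miR-24-2* 1.04 ± 0.362 (adjusted p = 0.0262) and for miR-34b-5p 0.98 ± 0.39 (adjusted p = 0.0491). Once brightness entered the model as a covariate none of these 6 passed: the changes were 0.66 (adjusted p = 0.0733) for miR-142-5p, 0.24 (0.621) for miR-142-3p, 0.53 (0.173) for miR-101a, 0.20 (0.596) for miR-101b, 0.26 (0.427) for miR-24-2* and 0.13 (0.745) for miR-34b-5p, with adjusted p in brackets. Brightness itself differed between the ages, so that the covariate and the age cannot be fully told apart. The calls of miR-142-3p, miR-101b, miR-24-2* and miR-34b-5p were also lost when single arrays were left out (5, 6, 4 and 8 of the 10 in turn), day 4 replicates 1 and 3 among them in each case, with adjusted p of up to 0.125, 0.126, 0.0945 and 0.153.

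The level of miR-22, a broadly expressed miRNA, was 11.41, 11.44, 11.65, 11.30 and 11.37 at day 4 and 12.38, 12.63, 12.39, 12.33 and 11.93 at day 14. It rose by 0.90 ± 0.128 (adjusted p = 5.06e-06), and its other arm miR-22* by 0.97 ± 0.157 (adjusted p = 2.48e-05). The pair miR-146a and miR-146b, which restrain signalling from inflammatory receptors, rose by 0.80 ± 0.165 and 0.91 ± 0.126 (adjusted p = 0.000429 and 3.53e-06). The values of miR-146b ran from 7.23 to 7.64 at day 4 and from 8.27 to 8.55 at day 14. The ages were separate for miR-22 and miR-146b, while miR-146a overlapped through day 14 replicate 5 (9.68). With brightness as a covariate these 3 still rose, by 0.96 (miR-22), 0.92 (miR-146a) and 0.89 (miR-146b).

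The counts of the lists with smaller rises stand beside 11.5% rises among all tested miRNAs. All 4 members of the miR-26 and miR-101 list rose, with a median of 0.81. Without day 4 replicate 1, 2 of the 4 rose (median 0.61), and with brightness as a covariate 1 of the 4 (median 0.34). Of the miR-30 family, miR-30a and miR-30b rose among 5 (miR-30a 0.64 ± 0.18, adjusted p = 0.00628; miR-30e, at 0.55, did not pass). Of the miR-99/100 and miR-125 list, miR-100 (0.75 ± 0.181, adjusted p = 0.00194) and miR-125b-5p (0.62 ± 0.242, adjusted p = 0.0456) rose among 5. In the let-7 family, known for its rise as cells mature, 1 of 9 members rose (let-7g, 0.31), a share near the background, and let-7c (0.41, adjusted p = 0.0843) and let-7b (0.37, adjusted p = 0.172) did not pass. Of 5 members of the miR-23/24/27 clusters, only miR-27a rose (0.63 ± 0.238, adjusted p = 0.0399), and miR-24 stood at 0.30 (adjusted p = 0.0843). Several of these small rises did not pass once any of a number of single arrays was left out: miR-26a (5 of the 10 arrays), miR-26b (6), miR-30b (6), miR-125b-5p (7), let-7g (5) and miR-27a (6), with adjusted p of up to 0.0832, 0.115, 0.0693, 0.117, 0.0883 and 0.131. With brightness as a covariate, miR-30a (0.34, adjusted p = 0.0841), miR-26b (0.21, adjusted p = 0.317), miR-27a (0.15, adjusted p = 0.53) and let-7g (0.23, adjusted p = 0.126) did not pass.

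The falls were led by miRNAs of the Dlk1-Dio3 region, an imprinted domain expressed from the maternal chromosome, whose miRNAs are abundant in embryonic and newborn tissue. Of its 75 names on the array 37 were tested. Of these 37, 34 fell and none rose, against a background of 28.3% falls among all tested miRNAs, and their median change was -1.63 (all tested, -0.10). The names miR-433, miR-380-3p, miR-543, miR-539, miR-154*, miR-496, miR-541 and miR-409-3p were not detected on all arrays of day 14. They entered the test only through day 4, where they were higher, so that the filter favours a fall for them. Over the names detected on all 10 arrays the median was -1.56. The members ran from chr12:109585789-109585885 (miR-337) to chr12:109743715-109743795 (miR-410), on the plus strand. Of the 9 names from the first stretch, which lies opposite the gene Rtl1, 8 fell, with a median of -1.70, and of the 28 names from miR-379 to miR-410, 26 fell, with a median of -1.62. In 7 of the 8 hairpins with both arms tested, both arms fell. The names that did not pass were miR-494 (-0.48), miR-136 (-0.66) and miR-376a (-1.27).

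The largest fall was that of miR-433, at 5.13, 4.33, 4.62, 3.91 and 4.01 at day 4 and 1.18, 1.18, 1.52, 1.18 and 2.84 at day 14. The value of 1.18 is the floor, so that 3 arrays of day 14 have no order among themselves, and miR-433 was detected on 1 of 5. It fell by 2.82 ± 0.307 (adjusted p = 2.05e-07). For miR-409-3p the values were 5.79, 5.08, 5.61, 4.86 and 4.74 at day 4 and 2.42, 1.86, 2.48, 1.99 and 3.79 at day 14, a fall of 2.71 ± 0.281 (adjusted p = 1.75e-07), with detection on 1 of 5 arrays at day 14. Among those detected on all 10 arrays stood miR-127, whose level was 10.04, 9.39, 9.84, 9.24 and 9.20 at day 4 and 7.58, 7.67, 7.67, 7.24 and 8.58 at day 14, a fall of 1.80 ± 0.253 (adjusted p = 4.53e-06). It lay at 10.17 at day 1 and at 6.04 at day 42. The 12 largest falls were ranked only among those without overlap between the ages, which leaves out the large fall of miR-551b, described below. Other members of the region in that ranking were miR-380-3p (-2.78), miR-411* (-2.46), miR-541 (-2.42) and miR-431 (-2.37). It also held miR-496 (-2.22), miR-410 (-2.07), miR-154* (-2.04) and miR-434-3p (-1.85). At day 14, miR-380-3p, miR-496 and miR-154* were detected on 2 of 5 arrays and miR-541 on 3 of 5, so that the sizes of these falls lean on values near background. No array of day 14 detected miR-543. Its readings there, taken at no less than the lowest detected signal of each array, were 4.50-fold lower than at day 4. That fold rests on undetected readings and not on a detection limit of miR-543 itself. Without day 14 replicate 5, 35 of the 37 fell with a median of -1.87, and with array brightness as a covariate 36 fell with a median of -1.65. With no scaling, the median of the list was -0.92.

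**Figure D3:**
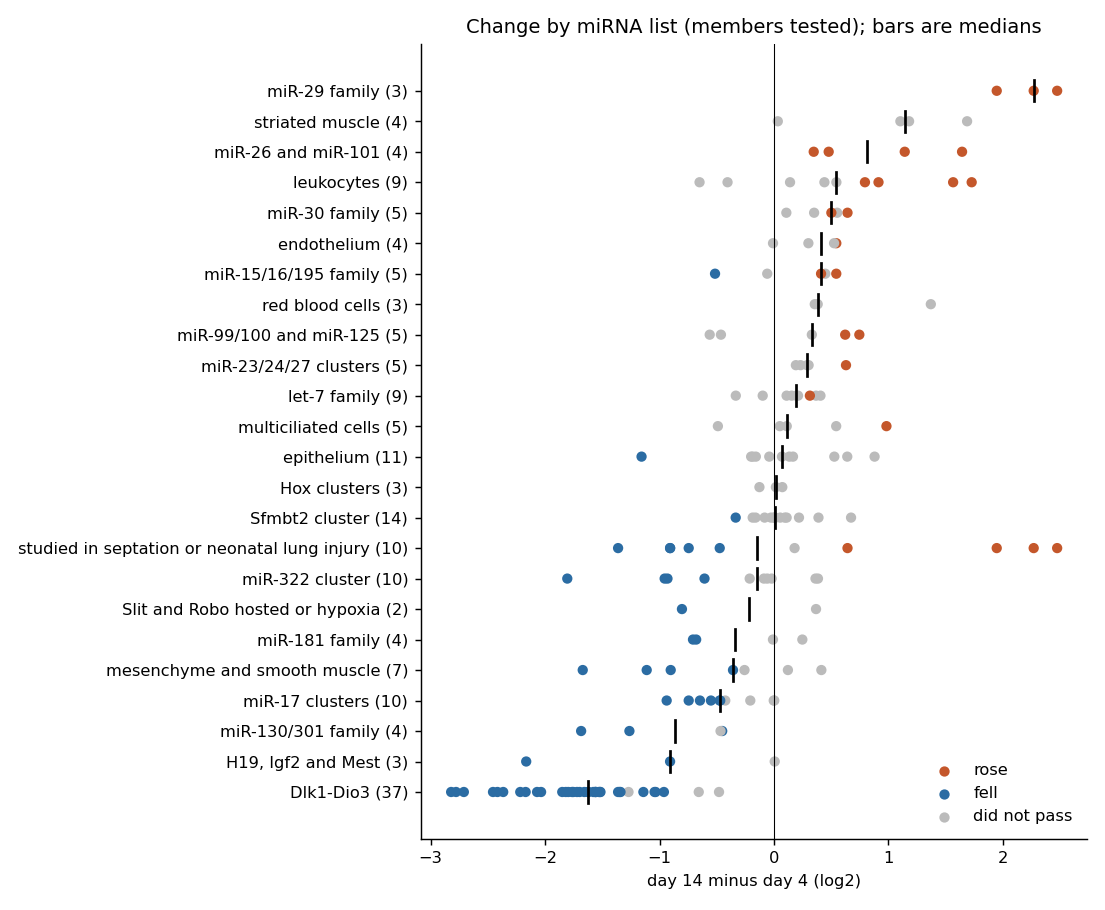
Change from day 4 to day 14 (horizontal axis, log2) for the tested members of each list (rows, with the number tested), coloured by whether they rose, fell or did not pass the test; black bars are medians of the members. The Dlk1-Dio3 members lie at the lowest values, down to -2.82 (miR-433), and the 3 members of the miR-29 family at the highest.

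Of the hairpins in the imprinted genes H19, Igf2 and Mest 3 names were tested. Both arms of miR-335, which lies in the paternally expressed gene Mest, fell. The values of miR-335-3p were 6.57, 6.56, 6.91, 6.60 and 6.64 at day 4 and 4.36, 4.18, 4.08, 4.12 and 5.72 at day 14, a fall of 2.17 ± 0.269 (adjusted p = 1.23e-06), and miR-335-5p fell by 0.91 ± 0.183 (adjusted p = 0.000317), its ages overlapping through day 14 replicate 5 and day 4 replicate 1. The third name, miR-483, in Igf2, changed by 0.01 and did not pass.

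Among markers of mesenchyme and smooth muscle, 4 of 7 fell, against 28.3% of all tested miRNAs. On chromosome 1, miR-214 and 1 copy of miR-199a come from an antisense transcript of the gene Dnm3. The other copy of miR-199a lies on chromosome 9, and the array cannot tell the 2 copies apart. For miR-214 the levels were 10.86, 9.71, 10.48, 9.58 and 9.54 at day 4 and 8.25, 8.51, 8.08, 7.97 and 9.02 at day 14, a fall of 1.67 ± 0.327 (adjusted p = 0.000237). Its other arm miR-214* fell by 1.11 ± 0.232 and miR-199a-5p by 0.90 ± 0.139 (adjusted p = 0.000461 and 1.32e-05). The fall of miR-199a-3p was 0.36 ± 0.119 (adjusted p = 0.02), a call that was lost on leaving out day 4 replicate 3, or replicate 1 or 4 of day 14 (adjusted p of up to 0.061). The smooth muscle miRNAs miR-143 (0.12, adjusted p = 0.54) and miR-145 (-0.26, adjusted p = 0.487) did not pass. The median of the list, which is the change of miR-199a-3p, was -0.36, and 0.35 with no scaling. In whole lung, fewer cells of a type and less RNA per cell cannot be told apart.

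Of the 10 tested members of the miR-17 clusters, which promote cell division and are highest in early lung, 6 fell and none rose (median -0.47, and 0.24 with no scaling), beside 28.3% falls among all tested miRNAs. The level of miR-17 was 6.40, 6.27, 6.57, 6.12 and 6.12 at day 4 and 5.47, 5.71, 5.51, 5.29 and 5.77 at day 14, a fall of 0.74 ± 0.126 (adjusted p = 4.18e-05), which was -0.04 with no scaling. The fall of miR-18a was 0.94 ± 0.259 (adjusted p = 0.00579), and that of miR-93, which turned positive with no scaling, 0.55 (adjusted p = 0.00156). Its neighbour miR-106b, of the same seed, changed by 0.003 and did not pass. In the miR-130 and miR-301 family 3 of 4 fell, with miR-301b by 1.69 ± 0.191 and miR-130b by 1.26 ± 0.158 (adjusted p = 3.75e-07 and 1.32e-06). Of the X-linked miR-322 cluster 4 of 10 fell, a share near that background, with miR-351 (by 1.81 ± 0.28, adjusted p = 1.33e-05) and miR-503 (by 0.96 ± 0.344, adjusted p = 0.0323). The call of miR-503 was lost when any of 7 arrays was left out (adjusted p of up to 0.0774). The list's median of -0.15 turned positive with no scaling (0.56), after quantile normalization (0.19), with all names (0.14) and in the deposited table (0.18). In the miR-181 family miR-181b (-0.71 ± 0.206, adjusted p = 0.00821) and miR-181d (-0.68 ± 0.146, adjusted p = 0.000625) fell, but with no scaling they stood at 0.00 and 0.03, and miR-181b did not pass with brightness as a covariate (-0.26, adjusted p = 0.122). The hypoxia-induced miR-210 fell by 0.80 (adjusted p = 9.47e-06).

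The miRNAs with the seed AGCAGCA went different ways. From the cluster on chromosome 11, miR-195 rose by 0.54 ± 0.128 (adjusted p = 0.0015) and miR-497 by 0.41 (adjusted p = 0.00868). The levels of miR-195 ran from 11.46 to 11.79 at day 4 and from 11.99 to 12.26 at day 14. From chromosome 3, miR-15b fell by 0.51 ± 0.166 (adjusted p = 0.0168), from 12.21 to 12.90 at day 4 to 11.77 to 12.14 at day 14, and miR-322, from the X chromosome, fell by 0.61 (adjusted p = 0.00868). Neither miR-15a (0.45, adjusted p = 0.152) nor miR-16 (-0.06, adjusted p = 0.716), which lie together on chromosome 14, passed, and miR-16 has a second copy beside miR-15b. With no scaling miR-15b changed by 0.19 and miR-322 by 0.10, and with brightness as a covariate miR-15b changed by -0.20 (adjusted p = 0.226). The call of miR-15b was lost on leaving out replicate 1 or 3 of day 4, or replicate 4 of day 14 (adjusted p of up to 0.0607).

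Markers of other cell types were set beside these changes. Of 5 tested names of cells with many cilia, 1 rose (miR-34b-5p), beside 11.5% of all tested miRNAs. Its other arm miR-34b-3p (0.05), miR-34c (0.54), miR-34c* (0.11) and miR-449a (-0.49) did not pass. The defining markers of epithelium, the miR-200 family, did not pass (miR-200a 0.53, miR-200b -0.04, miR-200c -0.20, miR-141 0.88, miR-429 0.17), and of 11 epithelial names only miR-205 changed (it fell by 1.16 ± 0.404, adjusted p = 0.0273, with overlap between the ages, and not past the threshold when any of 5 arrays was left out, with adjusted p of up to 0.1). The endothelial miR-126-3p rose by 0.55 ± 0.126 (adjusted p = 0.00133), as 1 of 4 names of that list, from 14.61 to 15.00 at day 4 to 15.09 to 15.62 at day 14. After quantile normalization its change was 0.05 and did not pass (adjusted p = 0.713). Among leukocyte names 4 of 9 rose (miR-142-5p, miR-142-3p, miR-146a and miR-146b; 11.5% of all tested), and miR-223 (0.14), miR-150 (0.55), miR-155 (0.44), miR-342-3p (-0.41) and miR-342-5p (-0.65) did not pass. The log2 of the summed signal of the leukocyte names, in which the strongest names weigh most, ran from 12.35 to 12.42 at day 4 and from 12.60 to 13.11 at day 14, that of mesenchyme and smooth muscle from 13.68 to 13.96 and from 13.25 to 13.57, and that of endothelium from 14.70 to 15.07 and from 15.15 to 15.68. The endothelial sum was almost that of miR-126-3p alone (mean 14.81 of 14.89 at day 4 and 15.36 of 15.43 at day 14). In signal units, most of the rise of the leukocyte sum (log2 mean 12.38 at day 4 and 12.94 at day 14) was that of miR-142-3p (9.86 and 11.42). The call of miR-142-3p was lost with brightness as a covariate. None of the names of red blood cells (3 tested) or striated muscle (4 tested) passed, and their summed signals overlapped between the ages (14.68 to 15.43 and 15.13 to 15.82; 8.79 to 9.77 and 9.53 to 11.84). Their part in the other changes was not tested.

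Of 12 names studied in septation or in neonatal lung injury, 10 were tested. Among them miR-29a, miR-29b, miR-29c and miR-30a rose and miR-154 (-1.36), miR-335-5p, miR-421 (-0.91), miR-17 and miR-20a (-0.47) fell. The other name, miR-34a, did not pass. With no scaling the fall of miR-20a turned positive. These overlap with the other lists, and the share of calls is no independent support for them.

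The day 7 arrays divided the span. Between day 4 and day 7 no miRNA passed the test (0%, and 11 at an unadjusted p under 0.05), whereas between day 7 and day 14 there were 95 (31.2%), 23 higher and 72 lower. Both steps share the day 7 arrays, and the first covers 3 days and the second 7. For 34 miRNAs (11.2%) the steps differed, of which 32 were among the 121 changed from day 4 to day 14, and 28 of those 32 were falls that were larger in the second step. The change per day differed between the steps for 0 of the 304 (limma, adjusted p under 0.05; 18 at an unadjusted p under 0.05). The Dlk1-Dio3 list had a median change of -0.17 in the first step and -1.44 in the second, and the miR-29 family 0.45 and 1.77. The level of miR-29a was 9.63 ± 0.16 at day 4, 9.81 ± 0.0876 at day 7 and 11.58 ± 0.67 at day 14 (SD, n = 5 each), and its steps of 0.18 and 1.77 differed (adjusted p = 0.0182). For miR-142-5p the steps were 0.83 and 0.90, and for miR-101a 0.76 and 0.89, which did not differ at the threshold (adjusted p = 0.986 and 0.983). Without day 14 replicate 5, 53 miRNAs had steps that differed.

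**Figure D4:**
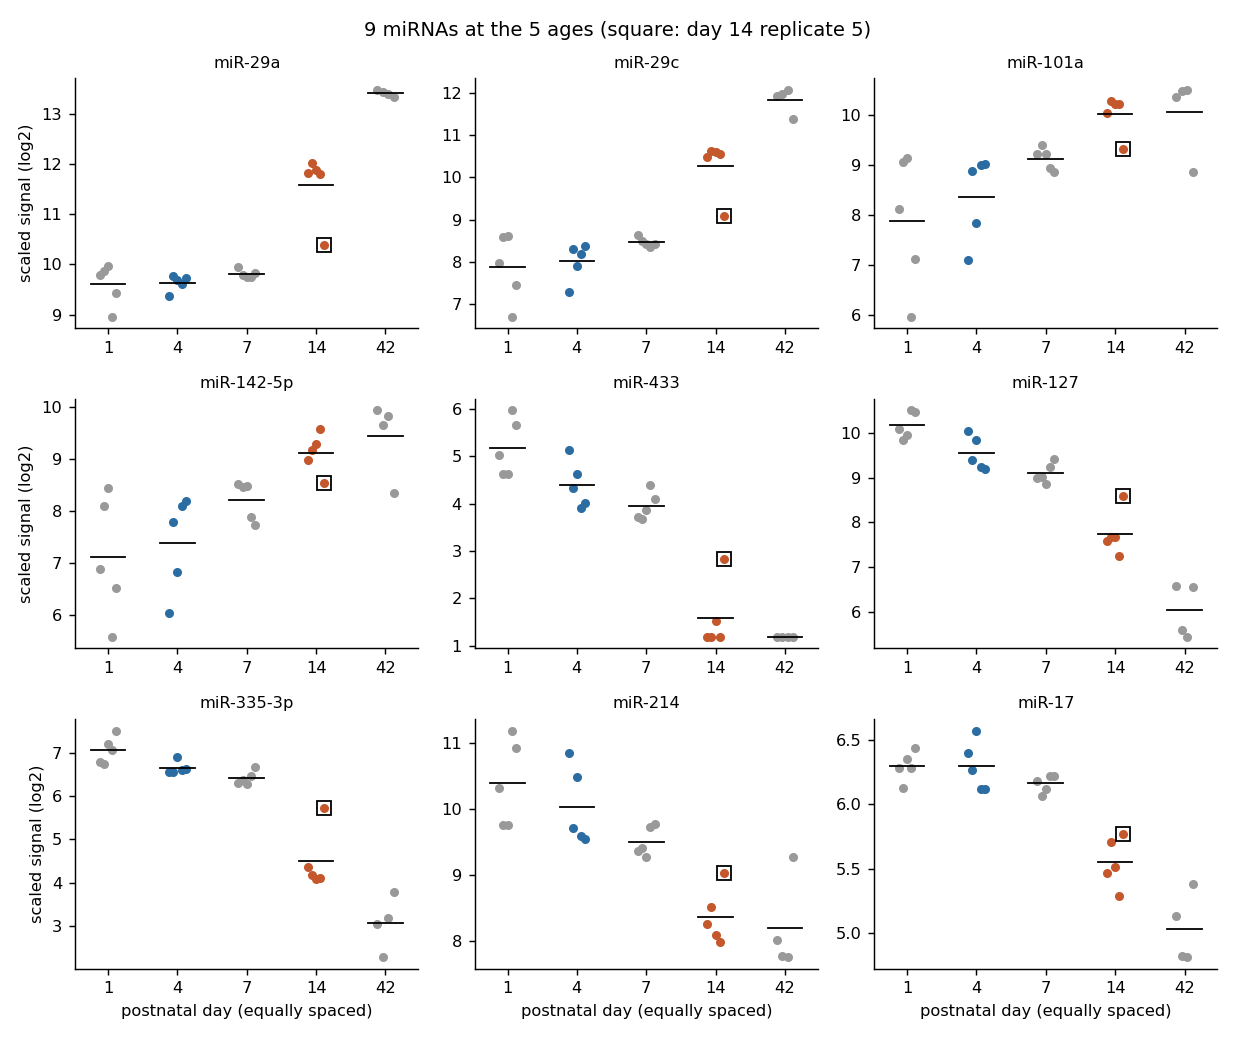
Log2 scaled signal (vertical axes) of 9 miRNAs on every array, by postnatal day (horizontal axes, days equally spaced and not to scale), with day 4 in blue, day 14 in orange and other ages in grey; black bars are the means and the black square marks day 14 replicate 5. For miR-29a, the means are 9.63 at day 4, 9.81 at day 7 and 11.58 at day 14.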

How the data were processed

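Whole-lung total RNA (100 ng, Cy3, per the labels' protocols) was read by Agilent Feature Extraction 10.7.1.1, per the file headers. The authors deposited intensity values per spot and per miRNA for each array, and a table of log2 values whose steps after extraction are not given in the sources used here. The members and lists were chosen with earlier results of these data known. The deposited total signal per miRNA (non-control spots) was divided by each array's 75th percentile over the 226 mouse miRNAs detected on all 24 arrays, set to a floor of 2.27 (1.18 in log2) where lower, and log2-transformed. limma 3.58.1 in R 4.3.3 (lmFit, eBayes) fitted the 5 ages over all 24 arrays (19 residual degrees of freedom), with Benjamini-Hochberg adjustment over 304 miRNAs; single values were compared by exact permutation, two-sided. Where no array of an age detected a miRNA, its readings were taken at no less than the lowest detected signal of any mouse miRNA on each array. The fold is then a bound under that limit alone. Named miRNAs were the 12 largest non-overlapping changes each way, the 2 largest of each list and the cell type markers. The fit was tested on simulated data. Alternatives covered background, scaling, detection, covariates, blocks and left-out arrays. The files hold no mean spot signal, so the normexp alternative used the median signal, with an offset of 50 and 14 stray backgrounds replaced. Array number limits the precision. Python 3.11.15 with pandas 2.3.3 drew figures and joined sequences, with the array's older names matched by hand to current names.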

Additional observations from a re-analysis of the deposited data

Results flagged for a closer look

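Values that stood far from the rest of their age were looked for in 122 groups of 5 arrays, and 19 were found; chance flags about 1 in 20 groups. On day 14 replicate 5, miR-29c read 9.08 (other arrays 10.49 to 10.63), miR-29a 10.39, miR-101a 9.32, miR-29c* 4.80 and miR-101b 7.83, each below the other 4 arrays of day 14. On the same array miR-433 read 2.84, miR-541 4.52, miR-431 5.29, miR-335-3p 5.72, miR-154* 4.55, miR-434-3p 7.65, miR-214* 3.65, miR-351 5.44 and miR-503 8.62, each above the other 4. These are 14 of the 19 values, and in each of them the array lies on the side of day 4. On day 4 replicate 1, the dimmest of the 10 arrays, 279 miRNAs were detected (315 to 328 on the others), and miR-29c* read 3.70, miR-380-3p 4.31 and miR-214* 3.25, each the lowest of its age. On day 4 replicate 3, miR-335-3p read 6.91 (6.56 to 6.64 on the others). The cause was not tested.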

How the results depend on the processing

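Of the 1405 values recomputed for 59 named miRNAs under 24 alternatives, 1262 kept their direction and their side of the threshold. The counts were not among these values. The number of rises (35) became 97 with the percentile over all names, 60 after quantile normalization, 132 with no scaling, 65 in the deposited table and 57 with brightness as a covariate; it ran from 23 to 36 with 1 array left out. The number of falls (86) became 147 after normexp background correction and 33 with no scaling, and the number of calls at 2-fold or more (60) became 29 after normexp. With brightness as a covariate, calls between day 7 and day 14 (95) became 143 and differing steps (34) became 79; differing steps were 2 with no scaling, 53 without day 14 replicate 5, an alternative chosen after seeing the data, and 0 per day, also chosen then. Among the recomputed values of the named miRNAs, those reversed were miR-29c* (-0.10), miR-10a* (-0.53) and miR-466f-3p (-0.57) after normexp, and with no scaling miR-10b (0.58), miR-15b (0.19), miR-181b (0.0014) and miR-181d (0.029). Not every fall reported here was among the recomputed values. With no scaling each change of a miRNA above the floor moves up by the brightness difference between the ages (0.71 in log2). Falls smaller than that therefore turned positive, those of miR-322, miR-93, miR-20a and miR-199a-3p among them. The medians of the miR-17 clusters (0.24) and of mesenchyme and smooth muscle (0.35) turned positive too. No scaling leaves the brightness difference in the values; the cause of the other changes was not tested. Replicate numbers did not pair the arrays: same-numbered arrays correlated at -0.21 to 0.31 (1 of 5 above 0.1) and 0 of 5 were best matched to their own number. With a replicate block, 111 miRNAs were called, 31 rises and 80 falls. The median spot signal stood in for the mean signal planned for normexp. Signal over background limits the dim miRNAs: no array of day 14 detected miR-543 or miR-298.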

Other observations

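The miRNAs named here were chosen after their values were seen. A pair of hairpins from the imprinted Gnas region of chromosome 2 fell. On the log2 scale miR-296-5p read 8.12, 7.46, 7.81, 7.15 and 7.26 at day 4 and 6.16, 6.28, 5.76, 5.88 and 6.86 at day 14, a fall of 1.38 ± 0.261 (limma, adjusted p = 0.000171). Its neighbour miR-298 was detected on all 5 arrays of day 4 and on none of day 14 (limma, adjusted p = 3.22e-09). With its day 14 readings taken at no less than the lowest detected signal of each array, it was 3.11-fold lower. Their mature sequences lie at chr2:174267093-174267113 and chr2:174267553-174267575 (GRCm38.p6, minus strand). The pair miR-192 and miR-194, which are transcribed together, rose by 0.78 ± 0.151 and 0.74 ± 0.125 (adjusted p = 0.00022 and 4.37e-05), without overlap between the ages, and both still rose with brightness as a covariate (0.58 and 0.66).

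The arrays of day 14 differed most on miR-551b, which read 6.32, 6.64, 6.50, 6.57 and 10.32 there and 8.68, 10.09, 9.37, 10.06 and 10.17 at day 4. Its mean was 10.38 at day 7. It fell by 2.41 ± 0.603 from day 4 to day 14 (adjusted p = 0.00265) and by 3.17 without day 14 replicate 5, the array that read highest. From the miR-106b cluster, the starred arm miR-106b* fell by 1.85 ± 0.255 (adjusted p = 3.53e-06), while miR-106b itself changed by 0.003. Names of mouse viruses on the array, which serve as a check of unspecific signal, were detected for 3 and did not pass (mcmv-miR-M23-1-5p -0.41, exact permutation p = 0.0635; mcmv-miR-m88-1 0.13, p = 0.643; mghv-miR-M1-2 -0.55, p = 0.0794).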
